A study of Homo sapiens with 24 samples.

Results

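The potassium channel genes were the 91 genes whose symbols name a pore-forming or auxiliary subunit of a potassium channel (symbols beginning with KCN) and which had a total of at least 10 counts, out of 27622 genes tested. They were chosen by symbol and not by any measured value. By family, 39 encode pore-forming subunits of voltage-gated (Kv) channels, 11 auxiliary subunits of Kv channels (KCNAB, KCNE and KCNIP), 16 inward rectifiers (Kir, KCNJ), 13 background channels with paired pore domains (K2P, KCNK) and 12 calcium- or sodium-activated channels and their auxiliary subunits (KCNMA, KCNMB, KCNN, KCNT and KCNU).

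RNA was sequenced from cultures of sensory neurons derived from H9WAO9, an established line of human embryonic stem cells carried here as wild type. The cells passed through vagal neural crest spheroids before they were plated and matured. The study gives the vagal neural crest as an origin of airway sensory neurons. Each of 6 batches of differentiation gave 4 libraries, 1 per treatment, so that every group held 6 libraries: vehicle (bovine serum albumin in saline), TGF-β at 2 ng/ml, IL-4 at 10 ng/ml with IL-13 at 3 ng/ml, and IL-6, whose dose and duration are not given in the sources used here. TGF-β, IL-4+IL-13 and vehicle were applied for 5 days. All groups came from the same line without any genetic change, and whole cultures were lysed, in which neurons were a minority of the cells by the flow cytometry of the study. A rise or fall in a gene therefore cannot be told apart from a larger or smaller share of the cells that express it. Nor can a change be placed in the neurons or in the other cells.

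Potassium channels carry potassium ions out of the cell along their gradient and hold a neuron near its resting potential or return it there after a spike. K2P and Kir channels conduct at rest, Kv channels open on depolarisation and shape the spike and the firing rate, and calcium- or sodium-activated channels open after ions have entered. In sensory neurons, the M current of the KCNQ family and the background current of the K2P family restrain firing, and the loss of either is known to raise excitability.

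The libraries held between 33342682 and 39817784 counts, with a median of 35775126. The neuron list (6 genes) and the sensory neuron list (8 genes) had every marker above 0 in every library, with TRPV1, the capsaicin receptor, between 8.90 and 15.1 CPM (counts scaled to a common library size), and the pluripotency gene NANOG was at 0 in 20 of 24 libraries. Of the 24 libraries, 4 were more like another batch than the batch on their labels. After removal of the group means, the vehicle library of batch 2 correlated at a mean of 0.0585 with the other libraries of batch 2 and at 0.479 with those of batch 4, and the vehicle library of batch 4 at 0.171 with its own batch and at 0.456 with batch 2, over 16695 genes. The TGF-β library of batch 4 correlated at 0.456 with its own batch and at 0.642 with batch 3, and the IL-4+IL-13 library of batch 4 at 0.348 and 0.589. The labels were kept as given, and whether those of the vehicle libraries of batches 2 and 4 are right was not tested, so every within-batch ratio to vehicle in these batches carries that doubt. The summed CPM of the dividing-cell list (4 genes) was 58.8 in the vehicle library of batch 2 against 326 with TGF-β, 447 with IL-4+IL-13 and 385 with IL-6 in the same batch, and 126 in the vehicle library of batch 4. The summed CPM of the sensory neuron list was 1036 in the vehicle library of batch 2 against 630 to 665 in the treated libraries of that batch. Where leaving out these vehicle libraries changed a call against vehicle, or moved a value of a gene among the smallest p by over 1.5 times, the values without them are given.

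At baseline, pore-forming and auxiliary Kv subunits and 1 K2P channel were the most abundant of the potassium channel genes described here per length. Among vehicle cultures, 72 of the 91 genes had a median of at least 1 CPM, 36 had at least 10 CPM, and 14 genes had at least 1 library of the 24 at 0 counts. KCNA6, a delayed rectifier of the Shaker family, had a median of 14.6 CPM per kilobase of transcript (kb), with a lowest library of 9 and a highest of 22.6. KCNH2, the ERG channel, had 14 CPM per kb (7.76 to 21.6), and KCNQ3, a subunit of the M channel, had 11.2 CPM per kb (8.06 to 15.6). These ranges overlapped, so the order among the 3 was not resolved beyond the spread between batches.

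Among auxiliary subunits, KCNIP1, a calcium-binding partner of the A-type Kv channels, had a vehicle median of 12.8 CPM per kb (10.5 to 18.7). KCNIP2, of the same family, had 10.4 CPM per kb (3.18 to 12.2). The cytoplasmic β subunits of Shaker-type channels were lower, at 7.42 CPM per kb for KCNAB2 (2.07 to 13.9) and 5.1 for KCNAB1 (2.97 to 7.46), with ranges that overlapped. KCNK3, an acid-sensitive background channel, led the K2P family at 11.8 CPM per kb (3.32 to 19.9). Its close relative KCNK9 had 4.05 CPM per kb, the weakly conducting KCNK1 3.83, and the mechanically and thermally gated KCNK10 3.44. Among inward rectifiers, KCNJ4, a strong rectifier like KCNJ2, had 6.56 CPM per kb (3.86 to 9.13), KCNJ8, the pore of a channel closed by ATP, 4.1, and the G-protein-gated subunits KCNJ9 and KCNJ3 4.02 and 3.49. Of the ion-activated group, KCNMA1, the pore of the large-conductance calcium-activated channel, had 6.33 CPM per kb (1.73 to 8.69). KCNN1, a small-conductance calcium-activated channel, had 4.07 CPM per kb (0.778 to 4.6), and the auxiliary subunits KCNMB4 and KCNMB3 of the large-conductance channel 3.83 and 2.52. The genes that passed a test below were spread over this order. KCNAB1 ranked 16 and KCNK1 26, whereas KCNJ2 ranked 44 at 1.59 CPM per kb (1.43 to 2.68), KCNJ16 ranked 75 at 0.196, and KCNN4 ranked 77 at 0.145.

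**Figure D1:**
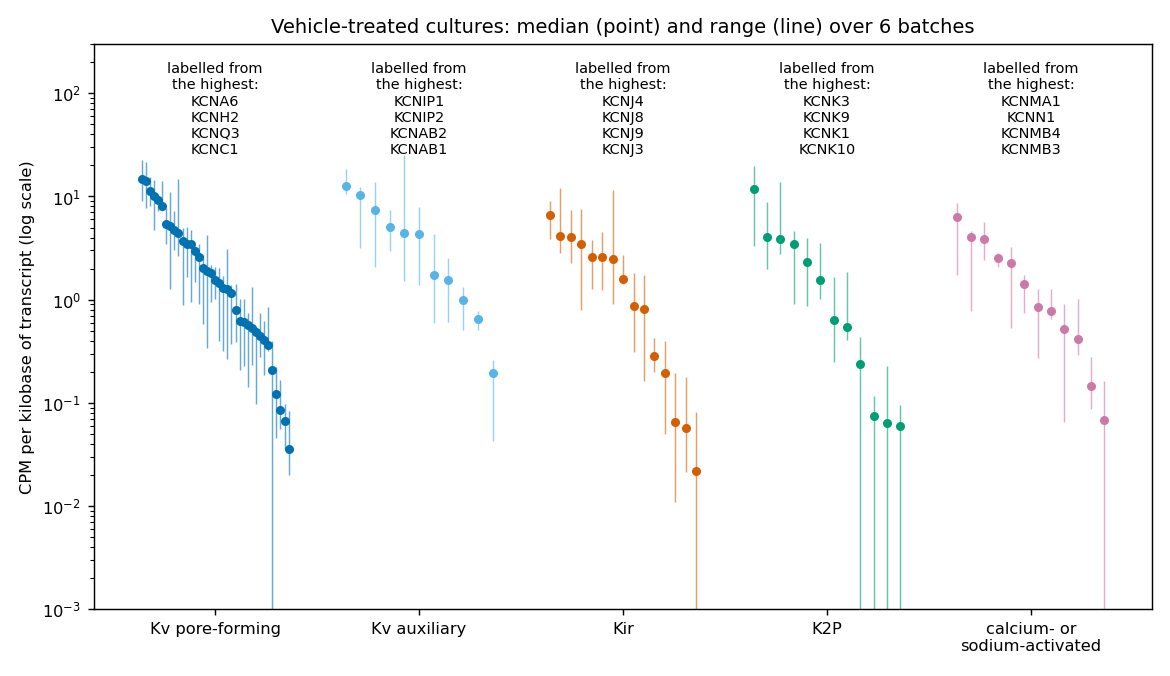
Level of 87 potassium channel genes in the 6 vehicle libraries, by channel group, in CPM per kilobase of transcript on a log axis. Points are medians, lines run from the lowest to the highest batch, and 3 genes with a vehicle median of 0 are not drawn. KCNA6, at 14.6, has the highest point drawn, and the lines of the leading genes overlap.

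Treatment was tested in 1 model of all 24 libraries with a term for batch (edgeR quasi-likelihood F test), and a gene passed at a p below 0.05 after Benjamini-Hochberg adjustment over all genes tested. Log2 fold changes are given with their standard error (SE) and rest on 6 libraries per group. The comparisons with vehicle share the vehicle libraries, and comparisons that name the same treatment share its libraries.

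IL-4+IL-13 raised 1 potassium channel gene above vehicle, KCNJ2, which encodes a strong inward rectifier that sets the resting potential of many excitable cells. The background of this comparison was 0.684% of all genes passing and 0.427% passing as higher. KCNJ2 had a lowest, median and highest level of 7.7, 8.55 and 14.5 CPM in vehicle cultures and of 9.83, 29.4 and 35.9 CPM after IL-4+IL-13. The groups overlapped only through batch 2, in which the IL-4+IL-13 library had 9.83 CPM, whereas the other 5 had at least 21.4 CPM. The gene rose 2.57-fold (log2 fold change 1.36, SE 0.19, edgeR adjusted p = 0.000895) and was higher in 6 of 6 batches. The within-batch log2 ratios were 1.77, 0.17, 1.51, 2.16, 1.36 and 1.19 in batches 1 to 6.

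KCNJ2 lies on the plus strand of chromosome 17 (GRCh38.p14, 70169532 to 70180044). The start of KCNJ16, another inward rectifier gene, lies upstream on the same strand (70075225 to 70135608), and 33923 bases separate them. KCNJ16 encodes a subunit that conducts mainly when joined to other Kir subunits and that makes the channel sensitive to intracellular pH. Since these neighbours were the potassium channel genes that differed between IL-4+IL-13 and IL-6, the 250 bases before each start are shown, from the RefSeq promoter table. Capitals mark the matches to the motifs searched on both strands, the CCAAT box (CCAAT, which reads ATTGG on the other strand), the GC box (GGGCGG), STAT-type sites (TTCNNNGAA and TTCNNNNGAA) and the half-site of a cyclic AMP response element (TGACG). The window of KCNJ2 is chr17:70169282-70169531 and that of KCNJ16 is chr17:70074975-70075224.
KCNJ2: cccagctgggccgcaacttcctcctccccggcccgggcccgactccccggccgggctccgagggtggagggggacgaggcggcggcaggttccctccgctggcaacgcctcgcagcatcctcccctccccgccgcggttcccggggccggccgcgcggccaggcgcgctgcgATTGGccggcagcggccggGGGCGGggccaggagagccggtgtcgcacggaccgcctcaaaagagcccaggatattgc
KCNJ16: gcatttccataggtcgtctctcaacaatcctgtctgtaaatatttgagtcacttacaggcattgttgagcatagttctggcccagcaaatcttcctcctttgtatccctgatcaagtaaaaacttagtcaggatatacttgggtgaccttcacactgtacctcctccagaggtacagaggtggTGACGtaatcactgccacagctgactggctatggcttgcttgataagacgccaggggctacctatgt
Counted from 1 at the 5′ end, the KCNJ2 window held a CCAAT box on the minus strand at base 173 and a GC box at base 192, with 77.6% G and C and 32 CpG dinucleotides. The KCNJ16 window held TGACG at base 184, with 46.4% G and C and 3 CpG dinucleotides. None of these matches overlapped another motif, and neither window held a STAT-type match. Of 35116 windows of the same length before all starts in the table, 32% held CCAAT, 42.6% GGGCGG, 21.2% TGACG, 6.57% TTCNNNGAA and 5.38% TTCNNNNGAA. The table held 67 of the 91 genes and listed 3 starts for KCNJ16, of which the first is shown.

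KCNJ16 itself did not pass against vehicle in the full set. Its lowest, median and highest levels were 0.2, 0.783 and 1.58 CPM in vehicle and 0.577, 2.69 and 3.9 CPM after IL-4+IL-13. The lowest IL-4+IL-13 library was again that of batch 2, at 0.577 CPM, and the other 5 lay above every vehicle library, between 2 and 3.9 CPM. The log2 fold change was 1.61 (SE 0.45, edgeR adjusted p = 0.150), with 5 of 6 batches higher. Without the vehicle library of batch 2 it was 2.15 (edgeR adjusted p = 0.00121), without both vehicle libraries that stood apart 2.06 (0.00599), and by DESeq2 on all libraries the adjusted p was 0.0244. Of the other 5 genes of the surrounding locus that had data, none passed between IL-4+IL-13 and vehicle. MAP2K6, the nearest of them, had a log2 fold change of 0.09 (edgeR adjusted p = 0.805) and ABCA5 of -0.10 (0.856). Exons of KCNJ2 and KCNJ16 overlap antisense transcripts in the annotation, and whether counting used strand is not given in the sources used here, so reads of such partners cannot be told apart.

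The other potassium channel genes of smallest p in this comparison did not pass. KCNK15, a K2P gene whose product is largely silent when expressed alone, had lowest, median and highest levels of 1.02, 1.37 and 4.71 CPM in vehicle and of 0.606, 1.1 and 1.48 CPM after IL-4+IL-13. It was lower in 6 of 6 batches, although the groups overlapped (log2 fold change -0.94, SE 0.26, edgeR adjusted p = 0.139), and it passed by DESeq2. KCNN3, a small-conductance calcium-activated channel, was higher in 6 of 6 batches at a log2 fold change of 0.34 (SE 0.10, edgeR adjusted p = 0.197). KCNC4, a fast Kv channel of the Shaw family, had a log2 fold change of -0.56 (SE 0.21, edgeR adjusted p = 0.360), which was -0.25 without the vehicle library of batch 2 and -0.34 without both vehicle libraries that stood apart. In all, 11 of 91 genes had an unadjusted p below 0.05, against 9.19% of all genes.

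**Figure D2:**
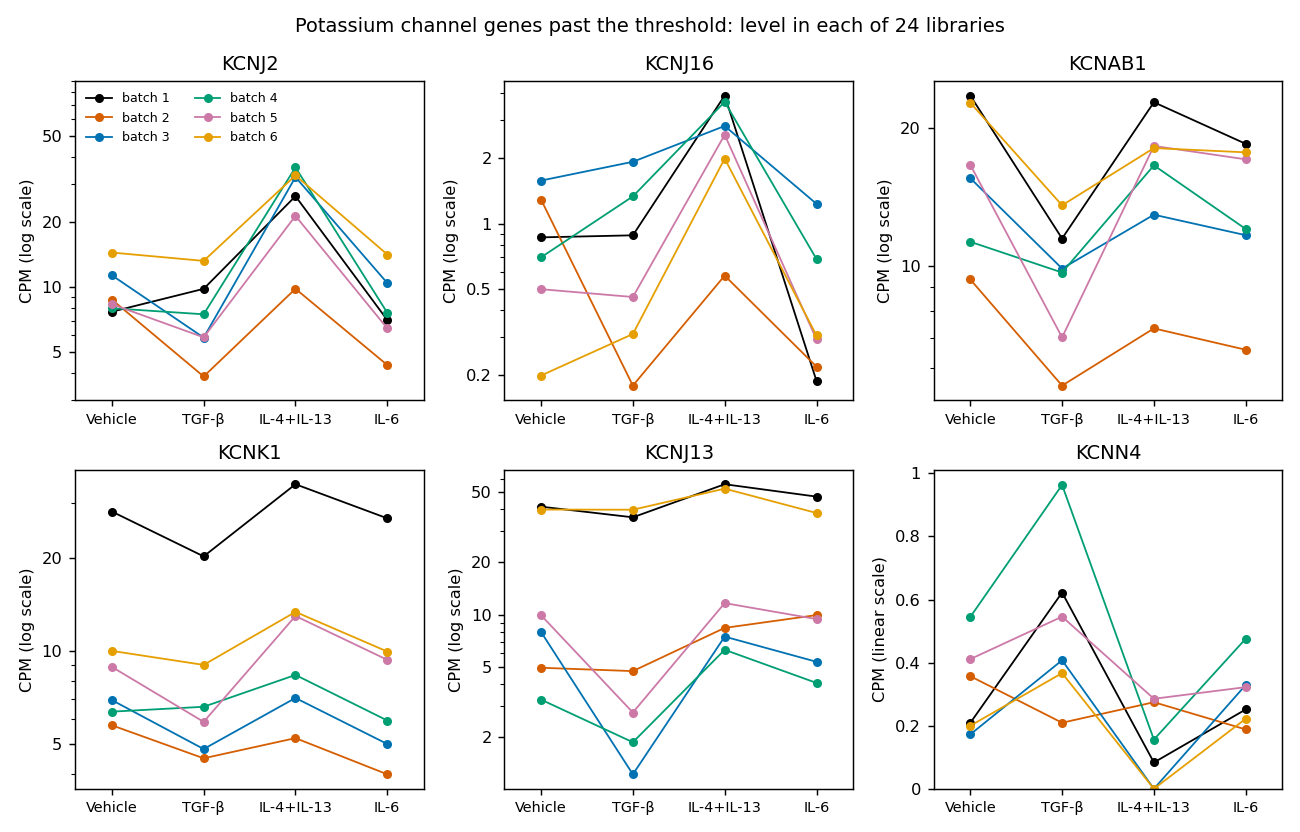
Level in CPM of the 6 potassium channel genes that passed in at least 1 treatment comparison, by group. Points are libraries, lines join the 4 libraries of a batch, and the axis is logarithmic except for KCNN4. KCNJ2 after IL-4+IL-13 lies at 9.83 CPM in batch 2 and at 21.4 CPM or more in the other batches.

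TGF-β lowered 1 potassium channel gene, KCNAB1, whose product is a cytoplasmic β subunit that speeds the inactivation of Shaker-type Kv channels. The background was 0.391% of all genes passing and 0.293% passing as lower. KCNAB1 (chromosome 3, 156118211 to 156539138) had lowest, median and highest levels of 9.37, 16.1 and 23.5 CPM in vehicle and of 5.51, 9.79 and 13.6 CPM after TGF-β. The ranges overlapped across batches, but within each of the 6 batches the TGF-β library was the lower. The gene fell 1.70-fold (log2 fold change -0.77, SE 0.13, edgeR adjusted p = 0.0112). The call was not held by every set of libraries: the adjusted p was 0.0551, 0.0851, 0.0702 and 0.0737 without batch 1, 3, 5 or 6, with the direction kept.

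Next in order of p against vehicle was KCNF1, a silent subunit that modifies other Kv channels, with 3.39, 6.78 and 7.49 CPM (lowest, median and highest) in vehicle and 2.69, 3.48 and 5.28 CPM after TGF-β. It was lower in 6 of 6 batches at a log2 fold change of -0.70 (SE 0.19, edgeR adjusted p = 0.171), and it passed by DESeq2. KCNK1 had a log2 fold change of -0.34 (SE 0.11, edgeR adjusted p = 0.309). KCNJ13, a weak inward rectifier best known from transporting epithelia, had -0.80 (SE 0.27, edgeR adjusted p = 0.358), with 6 of 6 batches lower. KCNE1, a single-span auxiliary subunit that slows KCNQ1 channels, was likewise lower in 6 of 6 batches at -0.85 (SE 0.35, edgeR adjusted p = 0.546). Of the 91 genes, 10 had an unadjusted p below 0.05, against 7.33% of all genes.

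IL-6 gave no potassium channel gene that passed against vehicle by edgeR, and none by DESeq2. The background was 0% of all genes by edgeR and 127 of 27622 genes by DESeq2. At an unadjusted p below 0.05 there were 4 of 91, against 4.7% of all genes. These were the Shaw-family channels KCNC4 (log2 fold change -0.53, SE 0.21) and KCNC1 (-0.45, SE 0.19), the sodium-activated channel KCNT1 (-0.53, SE 0.25) and KCNK12 (-0.68, SE 0.32), a K2P gene, each with an edgeR adjusted p of 0.85. KCND3, an A-type Kv channel, followed at -0.29. KCNC4 was lower in 4 of 6 batches and KCNC1 in 5 of 6. Without the vehicle library of batch 2, 1 of 90 genes had an unadjusted p below 0.05 (2.58% of all genes). The log2 fold changes were then -0.24 for KCNC4, -0.18 for KCNC1, -0.17 for KCNT1, -0.20 for KCNK12 and -0.11 for KCND3. Without the vehicle libraries of both batch 2 and batch 4, 7 of 90 had such a p (4.73% of all genes), and the changes were -0.32, -0.25, -0.27, -0.37 and -0.22 in the same order. KCNJ2 had 4.36, 7.33 and 14.2 CPM (lowest, median and highest) after IL-6, so that its median lay below the lowest vehicle library, and was lower in 6 of 6 batches without passing (log2 fold change -0.31, SE 0.19, edgeR adjusted p = 0.850, and -0.11 without the vehicle library of batch 2). KCNJ16 had 0.189, 0.299 and 1.23 CPM after IL-6.

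TGF-β and IL-4+IL-13 differed from each other in more potassium channel genes than either did from vehicle, with 6 of 91 passing against a background of 3.15%. The same order held over all genes, of which 0.391% passed for TGF-β and 0.684% for IL-4+IL-13 against vehicle. Of the 6 genes, 5 were lower after TGF-β, namely KCNJ2, KCNJ16, KCNJ13, KCNK1 and KCNAB1, and 1, KCNN4, was higher. Among all genes, 2.02% passed as lower and 1.14% as higher. KCNJ2 had 3.86, 6.67 and 13.2 CPM (lowest, median and highest) after TGF-β. Its log2 difference, TGF-β minus IL-4+IL-13, was -1.79 (SE 0.20, edgeR adjusted p = 2.75e-05), with 6 of 6 batches lower. KCNJ16 had 0.18, 0.672 and 1.93 CPM after TGF-β, with a log2 difference of -1.85 (SE 0.44, edgeR adjusted p = 0.0208). Thus 3 of the 5 lower genes were inward rectifiers, the third being KCNJ13.

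KCNJ13 (chromosome 2, 232765802 to 232776565) had 1.22, 3.76 and 39.8 CPM after TGF-β and 6.3, 10 and 55.7 CPM after IL-4+IL-13. The spread came from the batches, whose medians were 44.4 and 39.8 CPM in batches 1 and 6 and between 3.67 and 9.68 in the others, and in every batch the TGF-β library was the lower. Its log2 difference was -1.21 (SE 0.27, edgeR adjusted p = 0.0158). The gene lies within GIGYF2 on the other strand, so reads of both cannot be told apart. KCNK1 (chromosome 1, 233614106 to 233672514) had 4.49, 6.24 and 20.2 CPM after TGF-β and 5.22, 10.7 and 34.6 CPM after IL-4+IL-13. It too was lower in 6 of 6 batches at a log2 difference of -0.60 (SE 0.11, edgeR adjusted p = 0.00311). KCNAB1 had 7.33, 17.3 and 22.7 CPM after IL-4+IL-13, where its log2 fold change from vehicle was -0.05 (SE 0.13), and a log2 difference between the treatments of -0.72 (SE 0.13, edgeR adjusted p = 0.00248).

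KCNN4 (chromosome 19, 43766533 to 43780973), the intermediate-conductance calcium-activated channel, was the lowest of the 6 in level. It had between 7 and 31 counts per library after TGF-β and between 0 and 10 after IL-4+IL-13, with 2 of the latter libraries at 0. In CPM these were 0.209, 0.477 and 0.963 against 0, 0.12 and 0.285 (lowest, median and highest), and vehicle lay between at 0.172, 0.283 and 0.545. It was higher after TGF-β in 5 of 6 batches, with a fitted log2 difference of 2.02 (SE 0.51, edgeR adjusted p = 0.0323). At these counts the call was lost without any 1 of batches 1, 3, 4, 5 and 6, with adjusted p between 0.0738 and 0.174. The calls of KCNJ13 and KCNJ16 were also lost without single batches. KCNJ13 had an adjusted p of 0.103 without batch 4 and 0.0973 without batch 5, and KCNJ16 had 0.075, 0.0597, 0.138 and 0.105 without batches 1, 4, 5 and 6. KCNJ2, KCNAB1 and KCNK1 passed whichever single batch was left out. Without the vehicle library of batch 2, 9 of 90 genes passed, and without both vehicle libraries that stood apart 11 of 90 passed, while the share of all genes passing rose to 5.24% and 6.21%.

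Against IL-6, IL-4+IL-13 cultures had 2 potassium channel genes that passed, against a background of 0.51% passing and 0.366% passing as higher, and both were the chromosome 17 neighbours. KCNJ2, higher in 6 of 6 batches, had a log2 difference of 1.67 (SE 0.19, edgeR adjusted p = 9.72e-05). KCNJ16 was higher in 6 of 6 batches, 5.92-fold, at a log2 difference of 2.56 (SE 0.46, edgeR adjusted p = 0.00849). The KCNJ16 call was lost without batch 1, 5 or 6 (adjusted p 0.0858, 0.095 and 0.0632). TGF-β against IL-6 had 0 genes passing by edgeR, against a background of 0.0796%. By DESeq2, 3 passed (KCNAB1, KCNF1 and KCNJ13), where 488 of all 27622 genes did. At an unadjusted p below 0.05 there were 6 of 91, against 7.61% of all genes. KCNAB1 had 6.59, 14.6 and 18.5 CPM after IL-6 and was lower after TGF-β in 6 of 6 batches, at a log2 difference of -0.52 (SE 0.13, edgeR adjusted p = 0.130).

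KCNG1, a silent Kv subunit that modifies channels of the KCNB family, was measured at 4.74 CPM per kb in vehicle cultures (range 3.01 to 7.3). It did not pass in any treatment comparison. Its lowest, median and highest levels were 6.59, 10.4 and 16 CPM in vehicle, 9.69, 12.8 and 32.1 after TGF-β, 5.67, 7.75 and 28.7 after IL-4+IL-13 and 8.11, 10.4 and 32.9 after IL-6. The highest library of each treated group came from batch 2, in which the vehicle library had 10 CPM. The log2 fold changes from vehicle were 0.39 (SE 0.23), -0.15 (SE 0.24) and 0.16 (SE 0.23), with edgeR adjusted p of 0.807, 0.895 and 0.914. Without the vehicle library of batch 2 they were 0.17, -0.39 and -0.069. TGF-β exceeded IL-4+IL-13 in 6 of 6 batches at a log2 difference of 0.54 (SE 0.23, edgeR adjusted p = 0.319), and without the vehicle library of batch 2 this difference was 0.55 (edgeR adjusted p = 0.0381).

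The fitted changes of 3 abundant potassium channel genes, KCNH2, KCNK3 and KCNMB4, are given as examples and not as the values nearest 0. KCNH2 had medians of 60.1 CPM in vehicle, 58.8 after TGF-β, 60.9 after IL-4+IL-13 and 57 after IL-6, with log2 fold changes of -0.02, -0.06 and -0.15 (SE 0.11 for each). For KCNK3 they were -0.02, -0.19 and -0.20 (SE 0.15 for each), and for KCNMB4 0.07, 0.10 and 0.10 (SE 0.10 for each). KCNK3 had 123 CPM in the vehicle library of batch 2, against 58.7 to 72.5 CPM in the treated libraries of that batch. Without the vehicle library of batch 2, KCNH2 had 0.09, 0.057 and -0.034, and KCNK3 had 0.16, -0.0079 and -0.016. None of these 3 passed in any of the treatment comparisons, whereas KCNAB1, also abundant, passed after TGF-β, and the fitted changes of KCNC1 and KCNC4 are given above.

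Across all 91 genes, the fitted changes leaned below 0 against vehicle. The log2 fold change was below 0 in 59 genes after TGF-β (64.8%, against 51% of all genes), in 61 after IL-4+IL-13 (67%, against 50.2%) and in 67 after IL-6 (73.6%, against 52%). The medians over the 91 genes were -0.07, -0.14 and -0.18. Between treatments, the log2 difference was below 0 in 45 genes for TGF-β minus IL-4+IL-13 (50.7% of all genes), 35 for TGF-β minus IL-6 (49.7%) and 28 for IL-4+IL-13 minus IL-6 (48.2%). By family, the Kv pore-forming genes below 0 were 25, 30 and 32 of 39 in the order of TGF-β, IL-4+IL-13, IL-6. The Kir genes were 12, 10 and 12 of 16, the K2P genes 8, 9 and 11 of 13, the Kv auxiliary genes 7, 8 and 7 of 11, and the ion-activated genes 7, 4 and 5 of 12.

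This lean moved with batch 2. The median log2 ratio to vehicle within batches 1 to 6 was -0.09, -0.75, 0.04, 0.26, 0.12 and 0.04 for TGF-β. It was 0.14, -0.52, -0.12, 0.14, -0.03 and -0.13 for IL-4+IL-13, and 0.08, -0.74, -0.11, 0.07, -0.00 and -0.03 for IL-6, whereas the medians of all genes lay between -0.05 and 0.07. Without the vehicle library of batch 2, 40, 36 and 52 of the 90 genes left were below 0, with medians of 0.07, 0.04 and -0.02. These were 44.4%, 40% and 57.8%, against 49.1%, 48.4% and 50.4% of all genes. Without the vehicle libraries of both batch 2 and batch 4, the counts were 39, 38 and 55 of 90. These were 43.3%, 42.2% and 61.1%, against 46.9%, 46.9% and 49.4% of all genes. Lists of more than 1 cell type moved in the vehicle library of batch 2. The fibroblast list had 8336 summed CPM in the vehicle library of batch 2 against 3749 to 4878 in the treated libraries of that batch, and the neuron list had 4331 against 3357 to 3751, while the dividing-cell list was lower, as given above. The part of this difference in cell makeup in the result was not tested.

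**Figure D3:**
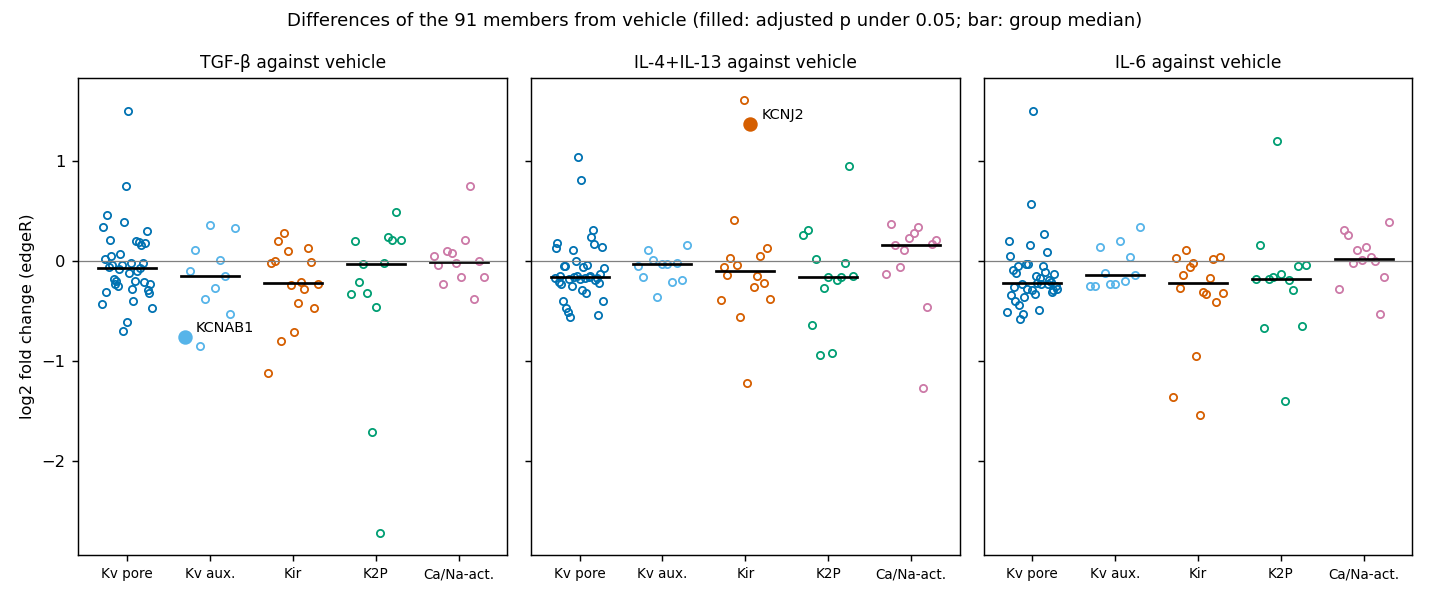
Log2 fold change from vehicle of the 91 potassium channel genes under each of the 3 treatments, by channel group, in the fit of all 24 libraries. Filled points had an adjusted p below 0.05 and bars are group medians. KCNAB1 after TGF-β and KCNJ2 after IL-4+IL-13 are the filled points.

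**Figure D4:**
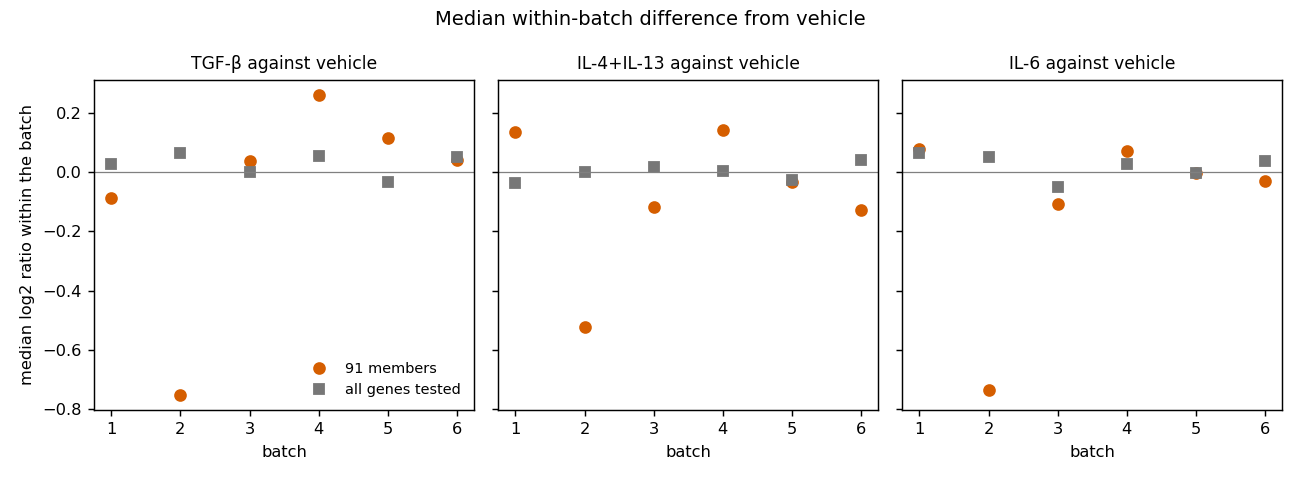
Median within-batch log2 ratio to vehicle over the 91 potassium channel genes and over all genes tested, for each treatment and batch. Batch 2 gives the lowest median for every treatment, at -0.75, -0.52 and -0.74 from left to right.

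Genes that moved the same way in every batch against vehicle were also counted. After TGF-β, 6 of 91 were lower in all 6 batches, a larger share than the background of 2.62%, and 2 were higher (2.22%). Those lower included KCNAB1, KCNF1, KCNJ13 and KCNE1. After IL-4+IL-13, 3 were lower (1.87%), KCNK15, KCNN4 and KCNA7, and 2 were higher (2.58%), KCNJ2 and KCNN3. After IL-6, 1 was lower (1.06%), KCNJ2, and 0 were higher (1.51%). KCNA7, a delayed rectifier, is outside the rule for named genes and was named after its values were seen. It was measured near 0, with a vehicle median of 0.277 CPM. Between treatments, 7 genes were lower (background 5.68%) and 6 higher (4.64%) in all 6 batches after TGF-β than after IL-4+IL-13, and 4 lower and 7 higher (3.88% for each) after TGF-β than after IL-6. After IL-4+IL-13, 0 were lower (2.43%) and 6 higher (2.8%) than after IL-6.

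Batch changed far more potassium channel genes than treatment did. The batch term passed for 76 of the 91 genes, against a background of 58.2%, including 35 of 39 Kv pore-forming, 9 of 11 Kv auxiliary, 13 of 16 Kir, 10 of 13 K2P and 9 of 12 ion-activated genes. KCNK1 had the largest F, 102 (edgeR adjusted p = 1.14e-10), with 20.2 to 34.6 CPM in batch 1 and 3.98 to 13.4 CPM in the other 20 libraries. KCNS3, a silent Kv subunit, followed at an F of 61.2, with 22 to 34.7 CPM in batch 1 and 4.55 to 16.7 CPM elsewhere. KCNA2, a Shaker-family channel of the axon, had batch medians of 11.7, 82.4, 54.3, 49.5, 35.1 and 14.9 CPM in batches 1 to 6, so that it was low in batches 1 and 6. KCNJ3 had 2.65 to 3.95 CPM in batch 1 and 7.87 to 35.3 CPM elsewhere.

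Batch 1 had the lowest batch mean in 48 of the 91 genes and the highest in 12. Only this batch was set against all the others gene by gene. All 4 of its libraries lay below the other 20 in 14 genes (background 5.6%), among them KCNH2, KCNK3, KCNMA1, KCNN1, KCNK10, KCNJ3 and KCNAB2, and above them in 4 genes (background 9.05%), KCNK1, KCNS3, KCNE1 and KCNN3. The median log2 difference of batch 1 from the other batches was -1.10 over Kv pore-forming genes, -0.99 over K2P genes, -0.48 over ion-activated genes, -0.47 over Kv auxiliary genes and -0.05 over Kir genes. This median was not taken over all genes, so a shift shared by all genes is not separated from these values. In batch 1 the neuron list had a median of 1455 summed CPM, against batch medians of 2875 to 4657 elsewhere, and the fibroblast list (7 genes) had 10043 against 3468 to 6894. Their part in the batch difference was not tested. By contrast, KCNQ3 (edgeR adjusted p = 0.0588), KCNMB3 (0.106), KCNN4 (0.208) and KCNA5, a delayed rectifier (0.301), did not pass the batch term.

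The summed level of the 91 genes followed the batches as well. In vehicle it was 953, 1714, 1869, 1422, 1344 and 1184 CPM in batches 1 to 6, after TGF-β 886, 1166, 2018, 1874, 1458 and 1234, after IL-4+IL-13 1097, 1225, 1719, 1641, 1326 and 1113, and after IL-6 981, 1092, 1647, 1484, 1331 and 1130. No treated group was higher or lower than vehicle in all 6 batches.

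Few genes that act with potassium channels passed, in lists too short for this to show that they did not change. Of 11 partner proteins, which bind or regulate the channels, 0 passed in any treatment comparison. Their summed level ran from 251 to 531 CPM in vehicle and from 317 to 578 CPM after TGF-β. Of 11 genes of potassium transport (pump subunits and cotransporters), 1 passed, SLC12A2, the sodium-potassium-chloride cotransporter that loads chloride into sensory neurons. It was lower after TGF-β than after IL-4+IL-13 at a log2 difference of -0.47 (SE 0.09, edgeR adjusted p = 0.00465), in a comparison where 3.15% of all genes passed. Between TGF-β and IL-4+IL-13, 1 of the 7 fibroblast markers passed, the collagen COL1A1, higher after TGF-β (log2 difference 1.31, edgeR adjusted p = 0.00633). Of the 7, 3 were below 0, and the median was 0.07. In the same comparison, 1 of 8 sensory neuron markers passed as lower and 1 of 6 glia markers as higher after TGF-β. Against vehicle and against IL-6, 1 sensory neuron marker passed as higher after IL-4+IL-13, and 1 glia marker after TGF-β. Against vehicle no fibroblast marker passed, but all 7 were below 0 after IL-4+IL-13 (median -0.20), 4 after TGF-β and 5 after IL-6. The part of cell makeup in the potassium channel results was not tested.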

How the data were processed

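RNA of 24 libraries (6 batches, 4 treatments) was sequenced after polyA selection. The authors deposited raw read counts per gene: reads were trimmed with Trimmomatic 0.30, aligned to GRCh38.p14 and counted by the sequencing provider. Aligner, counting tool and strandedness are not given in the sources used here, which matters for the 37 potassium channel genes whose exons overlap another gene (31 antisense). Counts covered 36468 rows; the first row of each symbol was kept (33230), and genes of at least 10 counts in all were tested (27622).

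The tests were edgeR 4.0.16 quasi-likelihood F tests (R 4.3.3, TMM, batch and treatment as terms) with Benjamini-Hochberg adjustment. The batch on the labels pairs the libraries, so the study's blocked design was used. CPM used TMM library sizes, and within-batch ratios a prior count of 0.5. Scripts were tested on simulated data. DESeq2 1.42.0 and other alternatives are given in the closing section. No libraries were near-duplicates: the lowest chi-square per gene between a pair was 12.4. Where nothing says that cultures within a batch were separate, p-values measure the spread between these libraries.

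Named genes were KCNJ2 and KCNG1, those passing in a comparison (the 5 of smallest p where fewer than 5 passed), the 4 highest per family in vehicle per kilobase and the 6 of largest batch F. Genes and lists were chosen with earlier results of these data known. Counts over the 91 genes include results of single genes that are not reported here. The selection left out 3 further symbols, and 1 gene (KCNA10) was under the minimum. KCNJ12 and its near-identical copy share reads and are uncertain. Depth limits the genes near 0 counts.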

Additional observations from a re-analysis of the deposited data

Results flagged for a closer look

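Among 148 groups of 6 libraries examined over 37 potassium channel genes, 16 held a library far from the other 5 by Dixon's criterion, which chance meets in about 1 of 20 groups. Of these, 13 were in batch 1. All values are CPM. The libraries low in batch 1 came from 5 genes. KCNK3 had 20.6 in vehicle (the others 63.4 to 123), 15.3 after TGF-β (69.2 to 134) and 22.3 after IL-6 (58.7 to 102). KCNN1 had 2.8 in vehicle (12.5 to 16.6), 3.57 after TGF-β (12.3 to 16.5) and 4.94 after IL-6 (11.4 to 18.3). KCNK10 had 6.83 in vehicle (19.7 to 35) and 8.51 after TGF-β (23.1 to 39.7). In vehicle, KCNMA1 had 10.8 (30.9 to 54.4) and KCNMB2, an auxiliary subunit of the KCNMA1 channel, had 0.686 (2.04 to 3.22). The libraries high in batch 1 were KCNK1 in vehicle at 28.2 (5.74 to 9.99) and KCNN3 at 16.6 in vehicle (8.51 to 10.8) and 17.2 after IL-6 (8.88 to 10.7).

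Batch 2 gave the other 3. KCNG1 had 32.9 after IL-6, where the other batches had 8.11 to 12.3. After IL-4+IL-13, KCNJ16 had 0.577 (the others 2 to 3.9) and KCNJ4 had 7.44 (12.1 to 16.1).

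The count table holds a second row for 5 of the potassium channel genes described here, which the tests left out. Their totals over 24 libraries were 8062 counts for KCND1 (56.4% of both rows), 1184 for KCNIP3 (45.8%), 34 for KCNIP4 (0.32%), 216 for KCNQ1 (14.8%) and 11750 for KCNT2 (62.2%). With the rows of a symbol summed, an alternative chosen after seeing the data, each treatment comparison had as many potassium channel genes passing as before.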

How the results depend on the processing

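Without the replicate block, potassium channel genes passing fell from 1 to 0 for TGF-β against vehicle, from 1 to 0 for IL-4+IL-13 against vehicle, from 6 to 1 for TGF-β against IL-4+IL-13 and from 2 to 1 for IL-4+IL-13 against IL-6. Over all genes, those passing fell from 108 to 0, from 189 to 14, from 871 to 51 and from 141 to 16 in the same order. DESeq2 gave 2, 3, 9 and 3 in these comparisons, 0 for IL-6 against vehicle and 3 for TGF-β against IL-6. A fit of the 18 libraries without IL-6 gave 0 for TGF-β against vehicle and 3 for TGF-β against IL-4+IL-13. In that fit 24 and 532 of all 26993 genes passed. Leaving out 1 batch or the vehicle library of batch 2 gave 0 to 1, 1 to 2, 3 to 9 and 1 to 2, and 70 to 76 for the batch term. Over all genes, 1 to 150, 76 to 244, 411 to 1443 and 63 to 236 passed, and 12217 to 17169 for the batch term. Leaving out the vehicle libraries of batches 2 and 4, chosen after seeing the data, gave 2 for IL-4+IL-13 against vehicle, 11 for TGF-β against IL-4+IL-13, and 2 for TGF-β against IL-6, KCNAB1 and KCNK12, in fits where 223, 1700 and 266 of all genes passed. Over all genes, edgeR called 108, 189, 0, 871, 22 and 141 and DESeq2 505, 556, 127, 1562, 488 and 386 for TGF-β against vehicle, IL-4+IL-13 against vehicle, IL-6 against vehicle, TGF-β against IL-4+IL-13, TGF-β against IL-6 and IL-4+IL-13 against IL-6. The causes of these changes were not tested.

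KCNJ2 passed in 14 of 15 alternatives for IL-4+IL-13 against vehicle, at log2 fold changes of 1.19 to 1.60, and missed without the block (adjusted p = 0.157). Directions turned in 5 refits of 3 log2 fold changes, none of which had passed. KCNJ2 in TGF-β against IL-6 ran from -0.24 to 0.019 with 1 batch left out (0.019 without batch 3). KCNG1 in IL-4+IL-13 against vehicle was 0.12 without the block and ran from -0.43 to 0.15 with 1 batch left out (0.15 without batch 4). KCNG1 in IL-6 against vehicle ran from -0.083 (without batch 2) to 0.39, and was -0.069 without the vehicle library of batch 2. Of the other log2 fold changes under alternatives, 530 kept direction and side of the threshold, 30 lost it and 15 gained it. Depth limits KCNN4 and KCNJ16.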
